A study of Mus musculus with 9 samples.

Results

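The genes described here encode the machinery that assembles, branches, cuts and anchors actin filaments. The list held 40 gene symbols given by name, with no rule on differences between groups, but it was chosen with earlier results of these data known. Of these symbols 36 were measured among the 22180 genes of the array. Each was read from the probe set annotated with that symbol alone, and from the one with the highest mean where a gene had several. No probe set carried Actr2 or Arpc3 in the annotation used here, and the 2 that named Arpc1b also named other genes, so these were not read. Diap1 is an older name of Diaph1, a formin gene that was counted with the wider pathway below.

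Regulatory T (Treg) cells keep other immune cells in check and need the transcription factor Foxp3 to do so. Actin monomers are held ready by profilin and thymosin, and the Arp2/3 complex starts new filament branches when WASP or the WAVE complex switches it on. Cofilin and its partners take old filaments apart, capping protein ends their growth, and filamin, alpha-actinin and the ERM proteins tie filaments to each other and to the membrane. In T cells this network drives migration, integrin adhesion and the contact with antigen-presenting cells. Mst1 and Mst2 are the kinases that start the Hippo cascade, and they have known roles in lymphocyte migration and adhesion.

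The arrays held 5 wild-type samples and 4 samples lacking both kinases, each hybridised to its own array. Wild-type donors were Foxp3YFP-Cre mice, and null donors were Foxp3YFP-CreStk4f/fStk3f/f mice, in which Cre made from the Foxp3 locus deletes Stk4 (Mst1) and Stk3 (Mst2) once a cell expresses Foxp3. Both groups therefore carry YFP and Cre at Foxp3, and both are labelled as of the C57BL/6 strain. Donor marrow was mixed in a ratio of 1 to 1 with wild-type CD45.1 marrow and given to RAG1-/- mice, which make no T or B cells of their own. After 2 months, CD4+YFP+ cells with CD45.2 and without CD45.1 were sorted from these recipients. The labels do not give ages, or say whether a sample came from a single recipient or a pool, and p-values therefore reflect the scatter among these 9 samples alone. The comparison asks which transcripts of the actin machinery depend on the kinases.

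The values are log2 expression values made by the authors with RMA, and differences are given as null minus wild type. Foxp3 lay between 10.59 and 10.79 in all 9 arrays, and the mean of 7 Treg cell markers lay between 10.03 and 10.11 in wild-type and between 9.73 and 9.91 in null arrays. Of those 7 markers 1, Ikzf2, passed the test (limma adjusted p = 0.033, lower in null). Counting Ikzf2, 4 of the 7 had an unadjusted limma p under 0.05, each lower in null samples. Besides Ikzf2, Cd3e (difference of -0.31) and Cd3g (-0.32) also had groups that did not overlap, while Cd4 (-0.18) had groups that did. Over all genes, 1.89% passed as lower, 9.8% were lower at such a p and 4.4% were lower without overlap. The Stk4 mean of the null samples was lower by 0.27 than that of the wild-type samples (limma adjusted p = 0.146, not passed), while no named probe set read Stk3. The Stk4 probe set is not known to lie in the deleted exons and does not check the deletion.

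Upstream sequence is shown first, for the members in which a motif of a factor tied to actin was found and for 1 without it. Serum response factor, which is activated through its cofactor MRTF when free actin monomers fall, binds a motif called the CArG box, and TEAD factors, the partners of YAP at the end of the Hippo pathway, bind sites built on GGAATG. The 250 bases before the start site were searched for both motifs, on both strands, in the 30 measured members that matched the RefSeq promoter table by symbol (build GRCm38.p6). Coro1b, the 1 member past the test's threshold, is among the 6 without an entry, so the search does not cover it. A CArG box was found in 2 of the 30 (6.67%), against 1.62% of all 27018 genes in that table, and GGAATG in 4 of the 30 (13.3%), against 14.4%. The CArG boxes were those of Actg1, on the minus strand at chr11:120348496-120348745, and of Arpc4, on the plus strand at chr6:113377863-113378112. That of Actg1 begins 90 bases before the start site and that of Arpc4 lies at the far end of the window, and both are in capitals. Actn1, the gene with the largest positive difference, is shown beside them (minus strand, chr12:80260364-80260613) and has neither motif in this window.
Actg1: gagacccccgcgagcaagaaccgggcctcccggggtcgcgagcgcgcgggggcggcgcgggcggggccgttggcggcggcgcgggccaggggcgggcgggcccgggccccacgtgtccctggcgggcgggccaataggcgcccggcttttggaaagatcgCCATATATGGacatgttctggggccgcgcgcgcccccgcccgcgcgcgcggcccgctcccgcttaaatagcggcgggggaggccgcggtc
Arpc4: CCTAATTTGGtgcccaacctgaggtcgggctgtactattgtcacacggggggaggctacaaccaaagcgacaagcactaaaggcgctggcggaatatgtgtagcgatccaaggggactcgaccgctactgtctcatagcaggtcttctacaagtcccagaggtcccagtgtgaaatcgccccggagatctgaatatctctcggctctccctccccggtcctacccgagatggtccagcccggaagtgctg
Actn1: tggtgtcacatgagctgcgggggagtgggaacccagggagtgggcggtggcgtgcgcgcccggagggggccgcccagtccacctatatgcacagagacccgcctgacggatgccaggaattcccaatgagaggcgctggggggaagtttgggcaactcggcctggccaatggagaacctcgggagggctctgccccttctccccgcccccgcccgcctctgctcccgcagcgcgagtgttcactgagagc
The genes with GGAATG were Arpc2, Pfn1, Flna and Actn4. These matches describe the sequence and show no binding. Neither gene with a CArG box passed the test (differences of -0.051 for Actg1 and -0.14 for Arpc4). Nor did the 4 with GGAATG (differences from -0.19 to -0.044). As Coro1b was not searched, no searched member passed, with or without a motif, so this does not compare them.

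Of the 36 members, 1 fell in null Treg cells, 0 rose and 35 did not pass the limma test at an adjusted p of 0.05 over all genes. Over all 22180 genes 2.32% passed (1.89% lower and 0.428% higher in null samples), and among the 11350 genes with a mean above the median of all values, which hold every member, 4.3% did. The gene that fell was Coro1b, which encodes coronin 1B, a protein that helps take apart Arp2/3 branches. At an unadjusted p under 0.05 there were 6 members, 4 lower and 2 higher, against 14.9% of all genes (9.8% lower) and 23.6% of those above the median. Most differences were small. Their median size was 0.093 log2 units, against 0.12 for the genes above the median, and the 95% interval of the difference lay within a change of 1.5-fold in 33 of the 36. The exceptions were Coro1b, Actn1 and Brk1, and only for Actn1 did the interval reach past 2-fold.

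**Figure D1:**
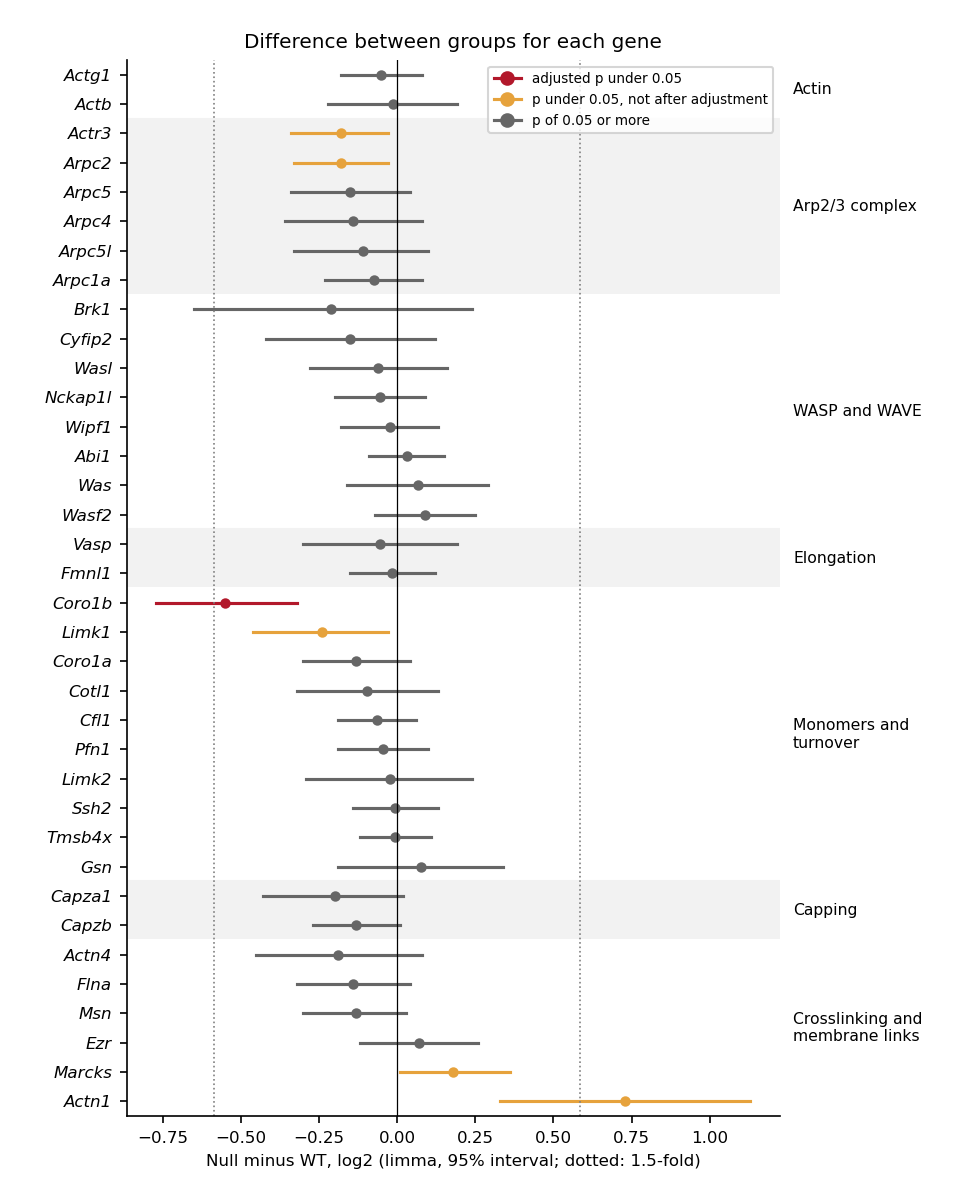
Difference between null and wild-type Treg cells for each of the 36 measured genes, grouped by role (points, null minus WT on the log2 scale; bars, 95% interval from limma; dotted lines, 1.5-fold). Coro1b is the 1 gene past the adjusted threshold, at -0.55, and Actn1 lies farthest to the right, at 0.73.

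The mean was lower in null samples for 29 of the 36 members, with a median difference of -0.062. The same median was 0.0023 over all genes, of which 49.3% had a lower mean, and -0.037 over genes above the median, of which 59.2% had. After quantile normalisation of the gene values 20 members had a lower mean and their median was -0.014, while the median of the genes above the median moved along with it, from -0.037 to 0.016. The groups did not overlap in 4 members, with Coro1b, Arpc2 and Actr3 lower and Actn1 higher, against 6.16% of all genes (4.4% lower and 1.76% higher) and 10.4% of those above the median. Null arrays were more spread than wild-type arrays for 27 of the 36 members (75%), as they were for 66.7% of genes above the median.

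**Figure D2:**
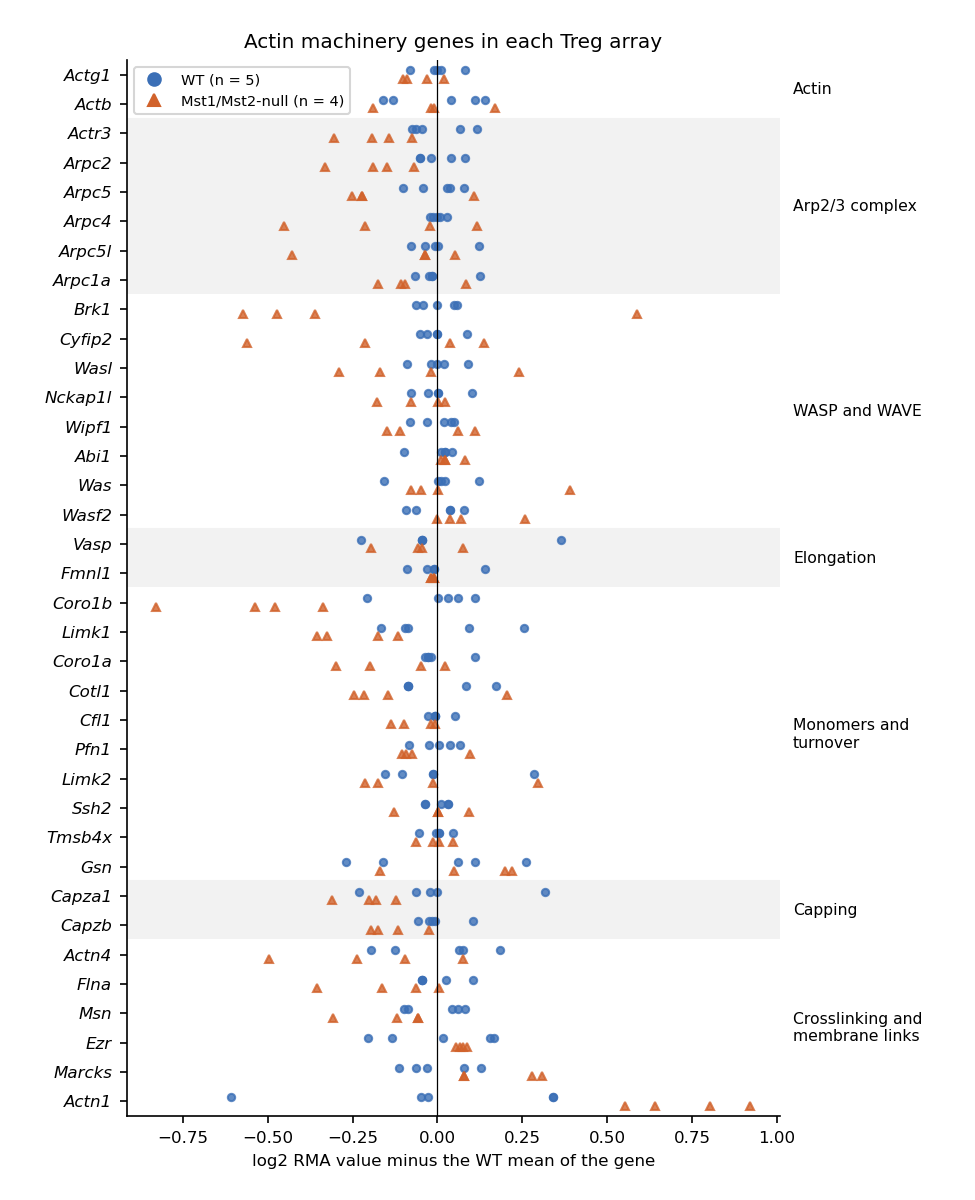
Every array's log2 value for the 36 genes, as its distance from the gene's wild-type mean (circles, 5 wild-type arrays; triangles, 4 null arrays). In most rows the groups overlap. Null array 2 stands alone on the right for Brk1, and the null triangles of Coro1b and Actn1 lie clear of the circles.

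Of the actin genes themselves, neither passed the test. Actg1, which encodes gamma-actin, read 10.66, 10.68, 10.59, 10.67 and 10.75 in wild-type arrays 1 to 5 and 10.64, 10.69, 10.58 and 10.57 in null arrays 1 to 4. The ranges overlapped, and the difference was -0.051 ± 0.059 (SE, 95% interval from -0.18 to 0.08, limma adjusted p = 0.763). The gene had 6 probe sets, 2 of which held the same value in every array. Their differences ran from -0.30 to -0.026, and none passed. Actin genes have many processed copies to which probes can bind, so which copy a probe set reads is uncertain. Actb, which encodes beta-actin, differed by -0.014 (95% interval from -0.22 to 0.19).

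The 6 measured subunits of the Arp2/3 complex, which nucleates branched filaments, all had a lower mean in null samples, and none passed the test. Their differences ran from -0.18 to -0.074 with a median of -0.14. Arpc2, a structural core subunit, read 10.64, 10.61, 10.61, 10.70 and 10.74 in wild-type and 10.47, 10.59, 10.51 and 10.33 in null arrays. Actr3, which encodes the actin-related subunit Arp3, read 10.79, 10.77, 10.76, 10.95 and 10.90 in wild-type and 10.69, 10.76, 10.64 and 10.53 in null arrays. For both genes every null value lay below every wild-type value, although the nearest values of the groups almost touched. The differences were -0.18 ± 0.067 (SE) for Arpc2 (limma adjusted p = 0.225) and -0.18 ± 0.07 (SE) for Actr3 (limma adjusted p = 0.244). Arpc4 and Arpc5 had lower means in null samples by 0.14 and 0.15, Arpc5l by 0.11 and Arpc1a by 0.074, each with overlap between groups.

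The lower means of this complex did not run evenly through the null arrays. Averaged over the 6 subunits, the distance from the wild-type mean was -0.14, 0.0059, -0.22 and -0.21 in null arrays 1 to 4, while wild-type arrays lay between -0.04 and 0.02. Null array 2 thus lay within the wild-type range. In 22 of the 36 members (61.1%) it was the highest of the null arrays, against 34.1% of genes above the median. Null array 3 was highest in 0 members, against 18.7% of those genes. Over all 36 members the mean distances in null arrays 1 to 4 were -0.072, 0.036, -0.12 and -0.081. For genes above the median they were -0.059, -0.028, -0.087 and -0.063, with null array 2 also the highest and null array 3 the lowest. Without null array 2 the median difference of the members was -0.078.

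Nucleation promoting factors, which switch Arp2/3 on, showed 5 lower and 3 higher means among 8, and none passed. Wasf2, a core subunit of the WAVE complex, read 8.33, 8.36, 8.50, 8.46 and 8.46 in wild-type and 8.42, 8.68, 8.49 and 8.46 in null arrays. The groups overlapped, with a difference of 0.089 ± 0.071 (SE, limma adjusted p = 0.628). Was, mutated in Wiskott-Aldrich syndrome, differed by 0.067 and its ubiquitous relative Wasl by -0.06. Wipf1, the partner that stabilises WASP, differed by -0.023. Of the remaining WAVE complex genes, Nckap1l, the blood cell form of its Nap subunit, differed by -0.056, Abi1 by 0.032 and Cyfip2, which contacts Rac, by -0.15.

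The value of Brk1, the smallest WAVE subunit, turned on a single array. It read 6.40, 7.35, 6.19 and 6.29 in null arrays 1 to 4, against 6.70 to 6.82 in wild type. With all arrays its difference was -0.21 ± 0.2 (SE, limma adjusted p = 0.708). Without null array 2 it was -0.47 ± 0.067 (SE) and passed (limma adjusted p = 0.0104).

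Barbed-end elongation was read through Vasp, an actin polymerase of cell edges, and the formin gene Fmnl1. Vasp read 7.41, 7.41, 7.82, 7.41 and 7.23 in wild-type and 7.40, 7.53, 7.26 and 7.41 in null arrays. These overlapped fully, at a difference of -0.054 (limma adjusted p = 0.877), and Fmnl1 differed by -0.017 (95% interval from -0.15 to 0.12).

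Among the 10 genes of monomer binding, severing and cofilin control, 1 fell. Coro1b read 8.45, 8.34, 8.13, 8.37 and 8.40 in wild-type and 7.51, 8.0, 7.80 and 7.86 in null arrays. Every null value was lower than every wild-type value, with null array 1 the lowest. Its mean went from 8.34 ± 0.12 (SD, n = 5) to 7.79 ± 0.21 (SD, n = 4), a difference of -0.55 ± 0.1 (SE) or 1.46-fold (limma adjusted p = 0.0236). The direction held in every setting, but the call did not. Leaving out null array 3 or any of wild-type arrays 1, 2, 4 and 5 gave limma adjusted p between 0.0614 and 0.0657, and a block for the replicate number gave 0.137. That block takes wild-type array 5, which has no null partner, out of the comparison and has less to estimate scatter from.

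Coro1a, the coronin of blood cells, whose loss causes T cell lymphopenia, differed by -0.13 ± 0.076 (SE, limma adjusted p = 0.478). Limk1, a kinase gene whose product inactivates cofilin, read 5.79, 6.21, 5.86, 5.87 and 6.05 in wild-type and 5.60, 5.84, 5.63 and 5.78 in null arrays. The null arrays were lower with overlap at null array 2, and the difference of -0.24 did not pass (limma adjusted p = 0.26). Its relative Limk2 differed by -0.022 and Ssh2, a phosphatase gene that reactivates cofilin, by -0.0059. Cofilin itself, encoded by Cfl1, differed by -0.064 (95% interval from -0.19 to 0.06). The monomer-binding genes Pfn1 and Tmsb4x, for profilin and thymosin beta-4, differed by -0.044 and -0.0052, with intervals from -0.19 to 0.1 and from -0.12 to 0.11. Cotl1, for a cofilin-like filament binder, differed by -0.097 and Gsn, for the severing protein gelsolin, by 0.077.

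Capping protein is a dimer whose chains come from Capza1 (or its relative Capza2) and Capzb. Capzb read 9.15, 9.14, 9.11, 9.16 and 9.27 in wild-type and 9.05, 9.14, 8.97 and 8.99 in null arrays. Capza1 read 10.17, 9.94, 10.11, 10.15 and 10.49 in wild-type and 10.05, 9.86, 9.97 and 9.99 in null arrays. Null arrays were lower in mean with overlap in both genes, and the differences of -0.13 and -0.20 did not pass (limma adjusted p = 0.367 and 0.394). The second probe set of Capza1 differed by -0.11.

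The crosslinking and membrane-linking genes held the largest positive difference, which did not pass the test. Actn1, which encodes alpha-actinin 1, read 8.42, 7.47, 8.42, 8.05 and 8.03 in wild-type and 8.88, 9.00, 8.72 and 8.63 in null arrays. Every null value was above every wild-type value, and wild-type array 2 was the lowest. The difference was 0.73 ± 0.18 (SE, 95% interval from 0.33 to 1.13, 1.66-fold) and did not pass over all genes (limma adjusted p = 0.0704). It passed after quantile normalisation (adjusted p = 0.0414) and when only genes above the median were tested (0.0405). Actn4, for the related alpha-actinin 4, differed by -0.19 (limma adjusted p = 0.527).

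Marcks, a gene for a membrane-bound actin crosslinker, read 4.68, 4.49, 4.63, 4.44 and 4.52 in wild-type and 4.63, 4.83, 4.63 and 4.86 in null arrays. These values lie near 4.04, the median over every probe set, where the size of a difference is not exact, and the difference of 0.18 did not pass (limma adjusted p = 0.298). Flna, for filamin A, read 8.75, 8.75, 8.90, 8.75 and 8.82 in wild-type and 8.73, 8.80, 8.63 and 8.44 in null arrays. Msn, for moesin, the main ERM protein of lymphocytes, read 10.61, 10.62, 10.75, 10.77 and 10.79 in wild-type and 10.59, 10.65, 10.65 and 10.40 in null arrays. Null array 4 was the lowest in both genes, while null array 2 reached the wild-type range in Flna and null arrays 2 and 3 did in Msn (differences of -0.14 and -0.13, limma adjusted p = 0.463 for each). Ezr, for ezrin, differed by 0.071.

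**Figure D3:**
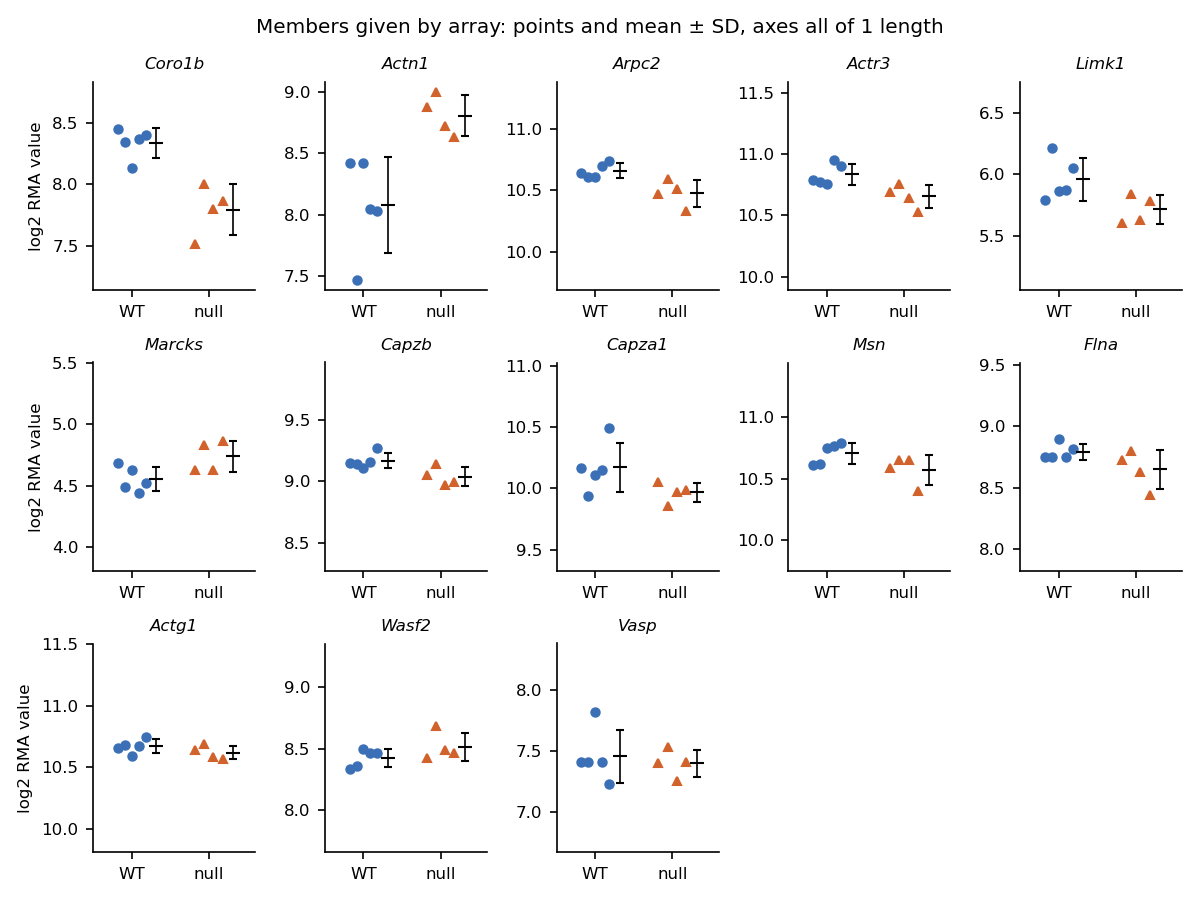
Log2 values by array for the 10 members with the smallest p and for the leading member of each remaining role (circles, wild type, n = 5; triangles, null, n = 4; bars, mean ± SD). All vertical axes span the same length, so the separation of Coro1b and Actn1 can be set against the narrow shifts of Arpc2 and Actr3.

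Whether related genes changed unequally was tested on their log2 ratio within each array. This ratio is free of a factor that shifts both genes of a pair equally. An array effect that differs between the paired genes, such as one that depends on signal level, stays in it. Over 7 pairs an exact two-sided permutation test of the sample labels was used, whose smallest possible p is 0.0079. The ratio of Actn1 over Actn4 averaged 1.18 ± 0.30 (SD, n = 4) over the null arrays against 0.26 ± 0.36 (SD, n = 5) over the wild-type arrays, without overlap (difference 0.92, exact permutation p = 0.0159, adjusted over the 7 pairs 0.0833). The ratio of Coro1a over Coro1b lay between 1.59 and 1.91 in wild-type and between 1.90 and 2.57 in null samples (difference 0.41, exact permutation p = 0.0238, adjusted 0.0833). Neither passed after adjustment. Over 7 pairs a single pair could not pass alone even at the smallest possible p, so the test cannot show that a ratio was unchanged. The remaining pairs had differences of -0.22 (Limk1 over Limk2), 0.20 (Ezr over Msn), 0.13 (Was over Wasl), 0.036 (Actb over Actg1) and -0.035 (Arpc5 over Arpc5l), with adjusted exact permutation p of 0.389 or above. Arpc1a could not be set against Arpc1b, which was not read.

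**Figure D4:**
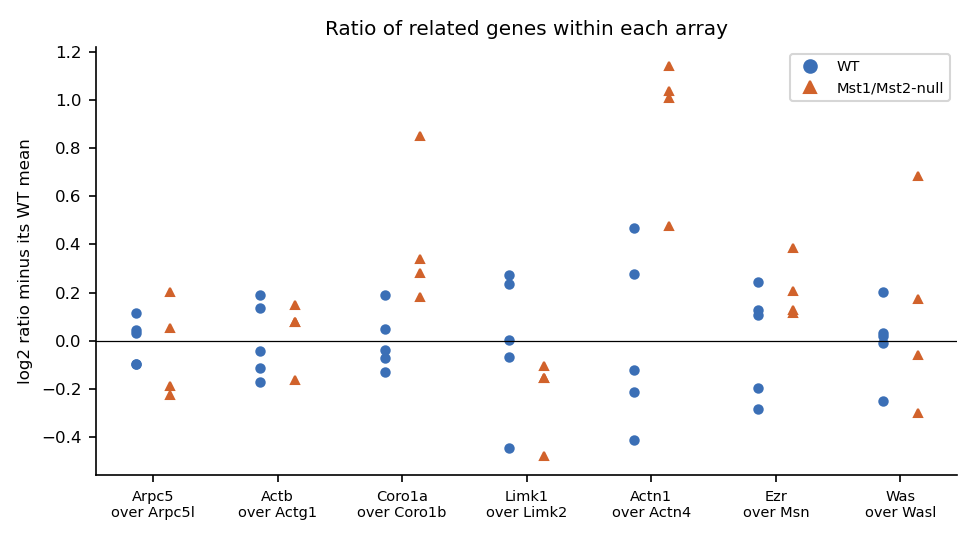
Log2 ratio of related genes within each array, minus the mean of the wild-type arrays (circles, wild type; triangles, null). The null arrays lie highest for Actn1 over Actn4, and for the other pairs the groups meet or overlap.

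The list for the wider pathway was also chosen with earlier results of these data known. It was read through 85 measured genes of 93 listed, none of them among the members. By limma 6 of these fell (7.06%), 0 rose and 79 did not pass, with 25 lower and 8 higher at an unadjusted p under 0.05, and their median difference was -0.09. Over all genes 2.32% passed and 14.9% had such a p (9.8% lower and 5.06% higher). Over the 11350 genes above the median 4.3% passed and the median difference was -0.037. Of these, 23.6% had such a p (1975 genes lower and 703 higher). Iqgap2, a scaffold gene for Rac and Cdc42, read 8.35, 8.31, 8.44, 8.37 and 8.18 in wild-type and 7.49, 7.58, 7.46 and 7.79 in null arrays. It fell by 0.75 ± 0.083 (SE) on the log2 scale, or 1.68-fold (limma adjusted p = 0.00183), and its relative Iqgap1 by 0.38 (limma adjusted p = 0.025). Swap70, whose product binds Rac and actin, fell 1.42-fold. Lcp1, for the lymphocyte actin bundler L-plastin, fell 1.24-fold, Myh9, for the heavy chain of non-muscle myosin II, 1.36-fold and Abi2, a WAVE subunit gene, 1.33-fold. For each of the 6 the groups did not overlap, as for 13 lower and 2 higher genes of the 85 in all. The share was 6.16% of all genes (4.4% lower and 1.76% higher). It was 10.4% of those above the median (917 genes lower and 265 higher). Iqgap2 passed under every alternative fit, while the count of 6 ranged from 1 to 9 when single arrays were left out. Without null array 1, Iqgap2 was the 1 gene left.

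In the roles given here, 1 of 18 further nucleators fell, 2 of 17 bundling and membrane-link genes, 1 of 10 tropomyosin and myosin II genes and 0 of 21 genes of monomer binding, capping and turnover. The GTPase gene Cdc42, singled out after its values were seen, had probe sets that disagreed. The one used, with the higher mean, differed by -0.07, while the second fell by 0.55 (limma adjusted p = 0.00535 over all probe sets).

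**Figure D5:**
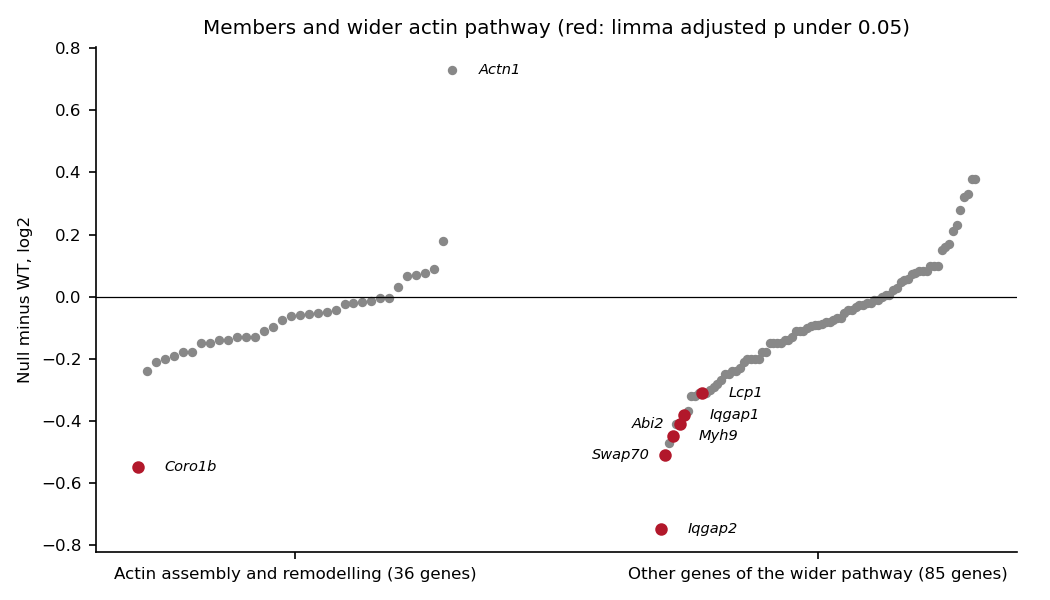
Difference between null and wild-type samples (log2) for the 36 members, at the left, and for the 85 other genes of the wider pathway, at the right. Each point is a gene, ranked within its list, and red points passed the limma test. All 7 red points lie below 0, and Iqgap2 is the lowest.

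Markers of other cells that a sort could hold were read in the same arrays. None of the measured markers of CD8 T cells (2), B cells (7), myeloid cells (8), NK cells (3), platelets (4) or stromal cells (4) passed by limma. Of these 28, 6 had an unadjusted limma p under 0.05, all of them higher in null samples, against 5.06% of all genes. They were Cd8b1, Cd79a, Fcer1g, Tyrobp, Spi1 and Pecam1, and only for Pecam1 did the groups not overlap. Pecam1, listed as stromal, had a wild-type mean of 8.16, against 4.08 or less for the other stromal markers. The mean log2 level of each marker list is given for wild-type and null arrays, in that order. It ran from 5.15 to 5.68 and 5.63 to 6.19 for CD8 T cells and from 5.46 to 6.18 and 5.53 to 6.35 for B cells. Among the B cell markers Ighm stood apart, with a wild-type mean of 10.28 and a difference of -0.17. The others had wild-type means from 3.93 to 6.59 and differences from 0.015 to 0.61. For myeloid cells the ranges were 4.37 to 4.70 and 4.66 to 5.13, with null array 4 the highest, and Itgam, Cd14 and Csf3r lay below the median of all values. All NK cell markers lay below it. The part of such cells in the differences above was not tested, and in bulk RNA fewer cells of a type and less RNA per cell cannot be told apart.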

How the data were processed

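Biotin-labelled cDNA from sorted cells was hybridised to whole-transcript Affymetrix arrays. The authors deposited log2 values for each probe set. Per the submitters' processing notes, RMA was run in version 1.1 of Affymetrix Expression Console. RMA subtracts background, gives the probe intensities of all arrays the same distribution and then combines the probes of a set. These steps can hide a change common to all genes and compress bright signals. The table held 41345 probe sets between 1.26 and 12.9, with array medians from 3.99 to 4.08. Scanner values were not used, so dim signal could not be told from background, and the number of arrays limits precision. An exact repeat of a value between arrays occurred in 15 of 36 members (41.7%) and 56.6% of all genes, which narrows some spreads.

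Of the probe sets 23521 had 1 gene symbol, 1814 several and 16010 none listed. Only those with 1 symbol were named, and the one with the highest mean stood for a gene. Groups were compared with limma 3.58.1 in R 4.3.3 (lmFit, eBayes, two-sided, Benjamini-Hochberg over 22180 genes, threshold 0.05, no filter on dim genes). The fit was run on simulated data with independent normal noise, which does not check it for effects shared within an array. Values by array are given for members past the threshold, the smallest p up to 10 members and the smallest p of each role. Of the wider list, genes past the threshold are named. Members and lists were chosen with earlier results of these data known. Nothing in the labels names a batch, and serial numbers in the titles place all wild-type before all null samples, so order and genotype cannot be told apart. Alternatives were a replicate block, a filter on dim genes, the mean of probe sets, median centring, quantile normalisation, other eBayes and weight settings and leaving out arrays. Tables were made in Python 3.11.15 with pandas 2.3.3 and numpy 2.4.6, and plots with matplotlib 3.10.9. The separate count for the remaining role list of the wider pathway is not reported here.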

Additional observations from a re-analysis of the deposited data

Results flagged for a closer look

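In 7 of 98 groups of samples examined (members, named genes of the wider pathway and ratios, each in wild-type and null arrays), 1 array stood far from the rest of its group, where chance gives about 1 in 20. In null array 2, Arpc5 was 10.1 with the next array at 9.77, and Pfn1 was 11.23 with the next at 11.06. In null array 1, Abi1 was 8.63 against 8.57 for the next. The ratio of Limk1 over Limk2 was -0.29 in null array 4, with the others between 0.03 and 0.08. In wild type, Arpc1a was 7.74 in array 3, Abi1 8.45 in array 2 and Coro1a 10.17 in array 5. None of these genes passed the test between groups.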

How the results depend on the processing

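Coro1b kept its direction in each of 18 alternatives (from -0.69 to -0.45), and Actn1 in each as well. The count of members past the threshold was 2 with only genes above the median tested and after quantile normalisation (Coro1b and Actn1). It was 0 with the replicate block. With single arrays left out it was 0 to 2, with Brk1 and Coro1b the 2 that passed without null array 2. The same 2 passed without null arrays 2 and 4, a choice made after seeing the data. Over all genes 420 fell and 95 rose (18.4% higher). With the replicate block 148 fell and 30 rose, and after quantile normalisation 306 fell and 170 rose (35.7% higher). Without null arrays 2 and 4 there were 586 falls and 149 rises (20.3% higher). Leaving out single arrays gave 226 to 494 falls and 45 to 122 rises. Of the wider list 1 fell with the replicate block and 1 to 9 without single arrays. Same-numbered wild-type and null samples showed little shared deviation (correlations of 0.042, -0.115, 0.0107 and 0.0409). No null array correlated best with its own number. A single correlation per pair cannot exclude a link that touches only part of the genes, and such a link was not tested.

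Of the 36 members 26 kept 1 sign throughout. The other 10 had differences of at most 0.067 in size, and none passed in any setting. After quantile normalisation the sign turned for Actb (0.042), Cfl1 (0.0014), Fmnl1 (0.05), Limk2 (0.047), Ssh2 (0.053), Tmsb4x (0.057), Vasp (0.021), Wasl (0.0061) and Wipf1 (0.057). It turned with array weights for Ssh2 (0.0075) and Tmsb4x (0.0032), and without null arrays 2 and 4 for Was (-0.064), Wasl (0.11), Ssh2 (0.0036) and Tmsb4x (0.017). Leaving out single arrays gave ranges that crossed 0 for Actb (-0.075 to 0.044), Fmnl1 (-0.038 to 0.018), Limk2 (-0.13 to 0.048), Ssh2 (-0.04 to 0.035), Tmsb4x (-0.024 to 0.013), Vasp (-0.11 to 0.037), Was (-0.041 to 0.12), Wasl (-0.16 to 0.017) and Wipf1 (-0.067 to 0.019). The same held for the ratios of Arpc5 over Arpc5l (-0.12 to 0.026), Actb over Actg1 (-0.0073 to 0.10) and Was over Wasl (-0.058 to 0.27). No ratio passed in any setting where it was tested, but a single pair could not have passed alone in any of them. Leaving out an array leaves fewer splits still, and with the replicate block the ratios were not tested. The cause of these turns was not tested. A covariate for Hspa1a and Hspa1b, added after seeing the data, left 1 member past the threshold.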
